A study of Mus musculus with 5 samples.

Results

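The actin cytoskeleton genes described here are 45 genes picked by symbol, as the rows of the deposited count table that carry one of 45 listed names, out of 46983 genes in the table. They comprise actins, proteins that bind actin monomers, the Arp2/3 complex and its activators, formins, capping and severing proteins, coronins, bundlers, membrane linkers, myosins, vimentin and a GTPase dissociation inhibitor. The list was chosen with earlier results of these libraries in view, so the differences between genotypes in its members are given as a description, and nothing is read from how many were called. All 45 were found and all 45 passed the filter on low counts.

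The samples were mouse Kupffer cells, the macrophages that live in the liver sinusoids, profiled by sequencing of polyadenylated RNA. The ID3-/- group (2 libraries, replicates 2 and 3) lacked both copies of Id3, and the ID3+/- group (3 libraries, replicates 1, 2 and 3) kept 1 copy, so every library carried at least 1 altered allele and no wild type was compared. Id3 encodes a helix-loop-helix protein without a DNA-binding region of its own, which pairs with E proteins so that they cannot bind DNA, and the comparison asked what its loss changes in Kupffer cells. The sources used here do not give age, strain, the altered part of the gene or the cell isolation beyond mechanical disruption of the liver in cold saline, and the labels do not say that the libraries came from separate animals, so every p-value measures the spread among these libraries, which may be technical.

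Macrophages move, spread and engulf particles by building branched and bundled actin filaments under the membrane. Monomers are held by thymosins and profilin, new branches are started by the Arp2/3 complex when WASP or WAVE proteins activate it, and unbranched filaments are extended by formins and Ena/VASP proteins. Capping proteins stop growth at the fast-growing barbed end, cofilin and gelsolin sever filaments, coronins and plastins remodel or bundle them, and ezrin, radixin and moesin tie them to the membrane.

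Promoters of 4 members are shown as examples. Capg had the largest increase among the members, and Capza2 encodes a capping protein subunit whose transcript fell. Arpc4 and Actg1 were the only members with a promoter entry to hold a CArG box. This is the motif of serum response factor, which regulates many actin genes. Each runs 5′ to 3′ on the gene's strand, from 250 bases before to 50 bases after the RefSeq start on GRCm38.p6, and capitals mark E boxes (CAGCTG, or CACCTG read on either strand) and CArG boxes. E boxes are the letters that E proteins bind.
Capg, chr6:72549397-72549696, plus strand: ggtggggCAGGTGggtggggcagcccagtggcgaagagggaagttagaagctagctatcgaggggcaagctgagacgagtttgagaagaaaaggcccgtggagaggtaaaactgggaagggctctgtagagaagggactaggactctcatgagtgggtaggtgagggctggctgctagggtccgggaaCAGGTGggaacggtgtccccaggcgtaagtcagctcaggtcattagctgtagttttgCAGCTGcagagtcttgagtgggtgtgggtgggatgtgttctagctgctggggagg
Capza2, chr6:17636760-17637059, plus strand: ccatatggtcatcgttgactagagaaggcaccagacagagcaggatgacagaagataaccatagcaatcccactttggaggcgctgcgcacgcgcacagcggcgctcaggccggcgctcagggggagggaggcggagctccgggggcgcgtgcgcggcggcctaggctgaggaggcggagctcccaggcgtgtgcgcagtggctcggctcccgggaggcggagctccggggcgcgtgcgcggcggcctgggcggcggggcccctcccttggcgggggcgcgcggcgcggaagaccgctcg
Arpc4, chr6:113377863-113378162, plus strand: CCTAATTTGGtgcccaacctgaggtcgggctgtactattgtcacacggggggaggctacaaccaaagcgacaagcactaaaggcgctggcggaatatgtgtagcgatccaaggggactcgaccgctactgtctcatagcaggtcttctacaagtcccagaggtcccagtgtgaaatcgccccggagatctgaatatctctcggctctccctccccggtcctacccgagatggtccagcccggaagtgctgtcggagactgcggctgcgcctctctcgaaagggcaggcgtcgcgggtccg
Actg1, chr11:120348446-120348745, minus strand: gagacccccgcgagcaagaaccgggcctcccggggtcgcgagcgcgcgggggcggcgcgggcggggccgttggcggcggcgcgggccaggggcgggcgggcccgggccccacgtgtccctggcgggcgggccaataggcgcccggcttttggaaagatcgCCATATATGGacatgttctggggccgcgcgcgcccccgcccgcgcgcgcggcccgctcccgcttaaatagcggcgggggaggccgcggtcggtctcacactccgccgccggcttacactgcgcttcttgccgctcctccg
The Capg promoter held a CAGCTG at position -5 from the start and the other E box form as CAGGTG further upstream, while the Capza2 window held neither motif. The CArG box lay at position -250 in Arpc4 and at position -90 in Actg1. RefSeq promoters were found for 39 of the 45 members, with 53 windows in all, of which 16 (30.2%) held either E box, against 10823 (32.9%) of the 32851 windows in the whole table. By form, CAGCTG was in 12 member windows (22.6%) against 16.3% of all windows, and CACCTG in 7 (13.2%) against 20.2%. A CArG box was in 2 member windows (3.77%) against 1.63% of all. Among members higher in ID3-/- cells, 4 of 9 windows held an E box, among lower members 1 of 9, and among the rest 11 of 35. Windows are not separate genes, as Gsn, Coro1a, Wipf1 and Lcp1 had several each. Gsn held an E box in its windows 1 and 2. Actb, Coro1b, Lsp1, Twf2, Arpc5l and Diap1 had no window, so their promoters were not searched for either motif. These matches describe letters in the windows and were not tested.

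Reads assigned to genes numbered 74.8M to 80.9M in each library. Id3 itself stood at 1.01 and 1.42 CPM (reads of a gene per 1M assigned reads, scaled by the TMM method) in the ID3-/- libraries, against 229, 221 and 256 CPM in the ID3+/- libraries, so each library matched its label. Kupffer cell markers (9 genes) summed to 57686 and 61583 CPM in ID3-/- and 53826 to 56413 CPM in ID3+/- libraries. Of these, 4 lay below the whole ID3+/- range, Clec4f (15259 and 13872 CPM in ID3-/-, 16701 to 16895 CPM in ID3+/-), Vsig4, Timd4 and Adgre1, and 4 above it, among them Marco (3569 and 3614 CPM in ID3-/-, 1554 to 1912 CPM in ID3+/-), C1qa and C1qb. Transcripts of hepatocytes (14 markers) were less abundant in ID3-/- libraries, at 3609 and 9132 CPM, against 19729 to 24897 CPM in ID3+/- libraries, with 10 markers below and 1 above the whole ID3+/- range. Sums of 12 neutrophil markers were 204 and 476 CPM in ID3-/- and 98.2 to 120 CPM in ID3+/- libraries, with 6 markers above and 0 below. Without Mmp9, the most abundant of them, the sums were 224 and 42.3 CPM in ID3-/- libraries 2 and 3 and 12.8 to 14.7 CPM in ID3+/- libraries, and granule genes such as Ngp (76.4 CPM) and Ltf (39.5 CPM) were abundant in ID3-/- library 2 alone. The 12 T and NK cell markers summed to 70.7 and 111 CPM in ID3-/- and 38.5 to 72.5 CPM in ID3+/- libraries, with 4 above and 0 below. Monocyte markers (9 genes, 3 above and 1 below) summed to 1018 and 1125 CPM in ID3-/- and 1044 to 1217 CPM in ID3+/- libraries, but Ly6c2 had 33.8 and 9.96 CPM in ID3-/- against 0.401 to 1.1 CPM in ID3+/- libraries. Stellate cell and fibroblast markers (12 genes, 2 above and 9 below) summed to 456 and 513 CPM in ID3-/- and 421 to 456 CPM in ID3+/- libraries, and without Ecm1 to 71.9 and 81.8 CPM in ID3-/- and 121 to 131 CPM in ID3+/- libraries. Sinusoidal endothelial markers (10 genes, 6 below) summed to 1022 and 1029 CPM in ID3-/- and 1078 to 1318 CPM in ID3+/- libraries, and B cell markers (7 genes, 1 above and 1 below) to 284 and 489 CPM in ID3-/- and 202 to 310 CPM in ID3+/- libraries. No marker was at 0 in every library of a genotype, and the part of these other cells in the results below was not tested. In bulk samples fewer cells of a type and less RNA per cell cannot be told apart.

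Across the 45 genes, 8 were called higher and 6 lower in ID3-/- cells, and 31 were not called (edgeR quasi-likelihood test, Benjamini-Hochberg adjusted p under 0.05 over 16436 genes tested). Over all genes tested, 16.4% were called, 6.41% higher and 10.0% lower. Both ID3-/- libraries lay above all ID3+/- libraries for 17 members and below them for 19, and the groups overlapped for 9. The same separation held for 51.5% of all genes tested, with 24.6% above and 26.9% below. The median log2 fold change of ID3-/- over ID3+/- was 0.05 over the members, in a range of -1.36 to 1.63, and -0.02 over all genes. The members therefore include genes on either side and have a median near that of all genes.

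**Figure D1:**
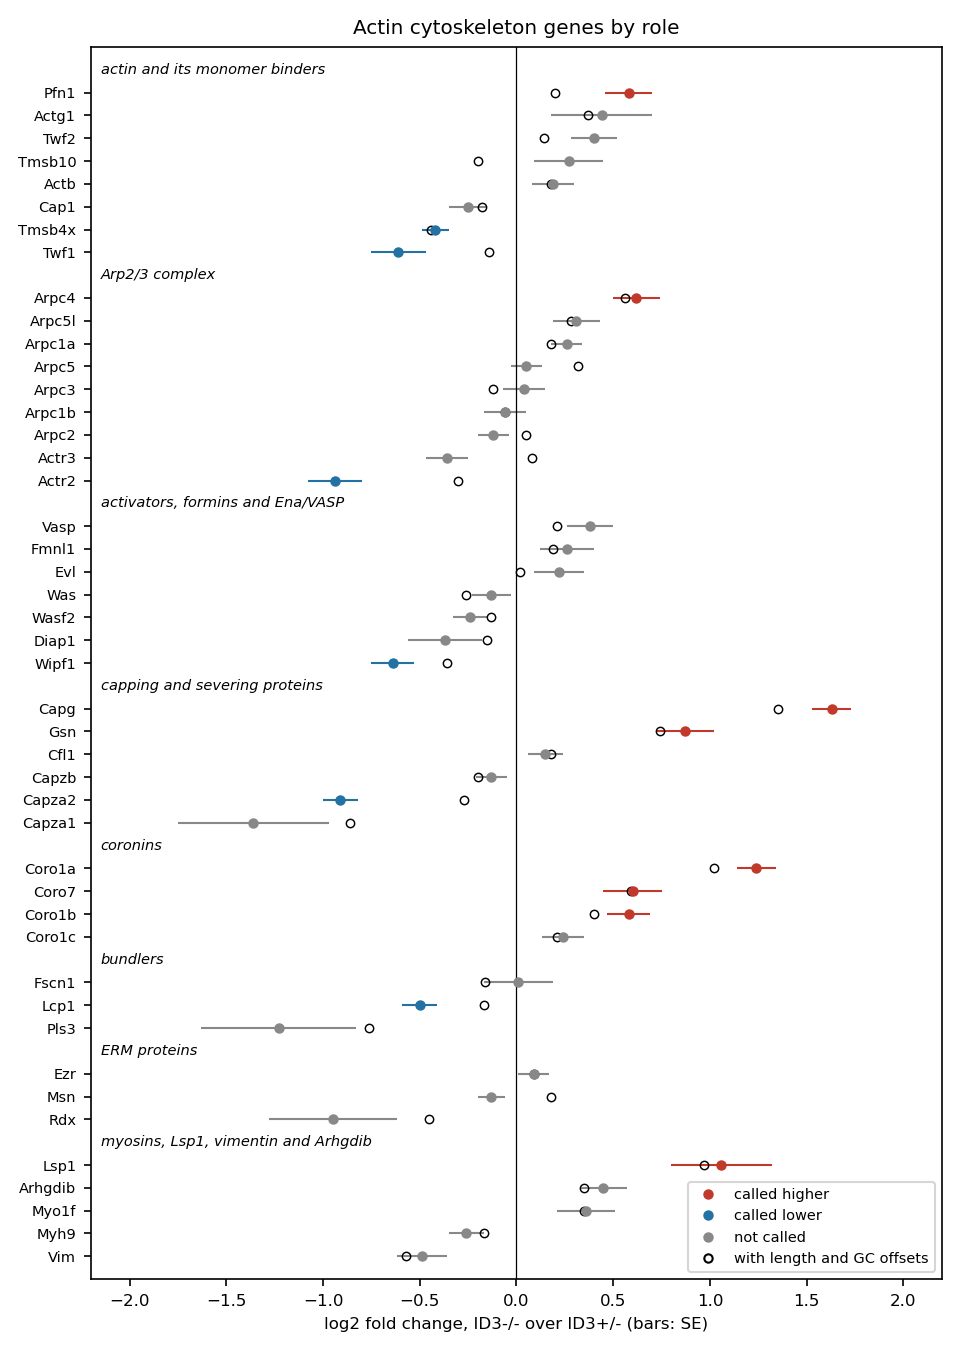
Log2 fold change of ID3-/- (n = 2) over ID3+/- (n = 3) Kupffer cells for the 45 genes, grouped by role, with bars for the SE and colours for the call. Open circles give the fold change after offsets for transcript length and GC content, under which Capg (1.35) and Coro1a (1.02) were still called.

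The sum of all member transcripts was alike in the genotypes, but its makeup was not. The 45 genes took 2.55% and 2.59% of the assigned counts in the ID3-/- libraries, against 2.57%, 2.51% and 2.66% in the ID3+/- libraries. Thymosin beta 4 (Tmsb4x) alone supplied 25.6% and 27.3% of these member counts in ID3-/- cells and 35.6%, 35% and 34.9% in ID3+/- cells. The other 44 genes together took 1.9% and 1.88% of all counts in ID3-/- libraries and 1.65%, 1.63% and 1.73% in ID3+/- libraries, so the groups did not overlap in either share. Per kilobase of exon, Tmsb4x was also the most abundant member, with a mean of 4958 CPM per kilobase in ID3-/- and 6619 in ID3+/- cells. Profilin 1 (Pfn1) stood at 1199 in ID3-/- and 804 in ID3+/- cells, and beta-actin (Actb) at 1053 in ID3-/- and 924 in ID3+/- cells, so Pfn1 was second in ID3-/- cells and Actb in ID3+/- cells. The least abundant per kilobase in ID3+/- cells were Actg1 (2.03 in ID3-/-, 1.5 in ID3+/-) and Pls3 (0.775 in ID3-/-, 1.81 in ID3+/-).

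**Figure D2:**
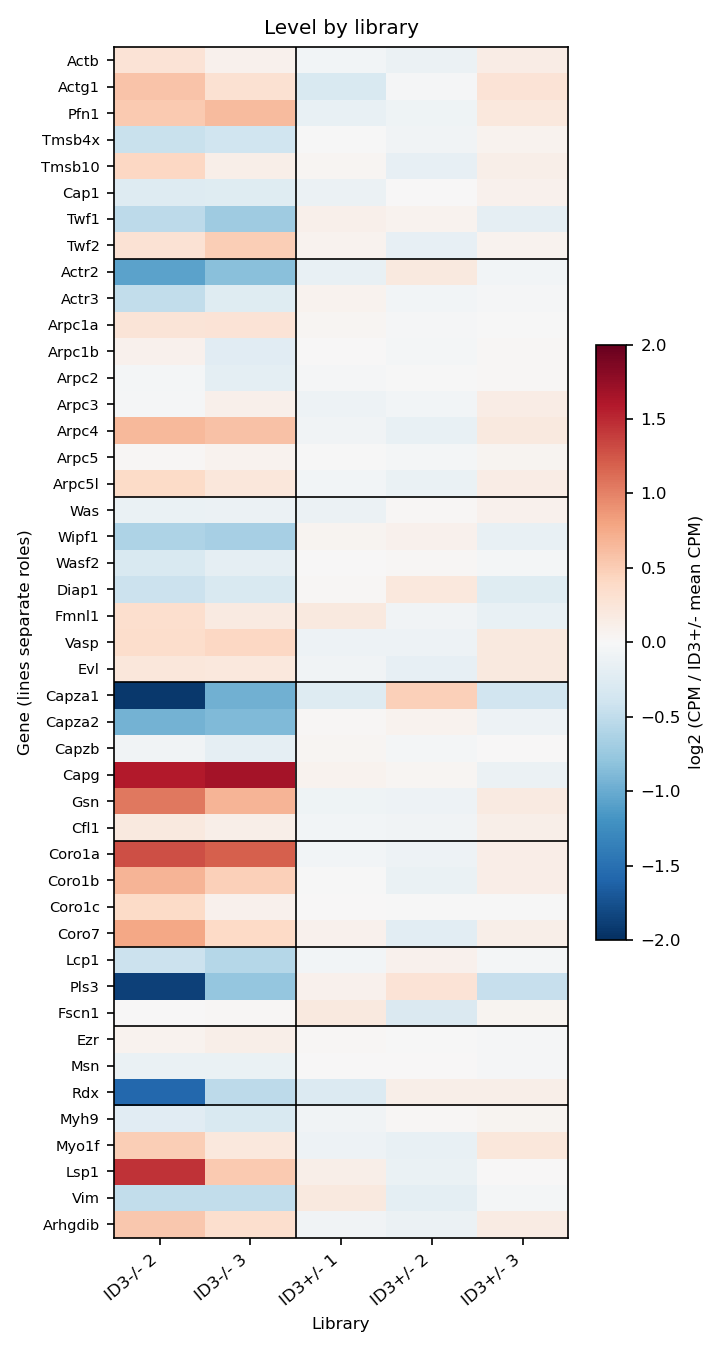
Level of each of the 45 genes in each library as log2 of its CPM over the ID3+/- mean, with ID3-/- libraries on the left and lines between roles. Capg and Coro1a are high and Capza2 and Actr2 low in both ID3-/- libraries, while Lsp1 is much higher in library 2 than in library 3 (105 and 55.2 CPM).

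The cytoplasmic actins themselves were not called. Actb stood at 3007 and 2637 CPM in ID3-/- libraries 2 and 3, against 2392, 2280 and 2756 CPM in ID3+/- libraries 1, 2 and 3, the order used for every list of values below, and the groups overlapped (log2 fold change 0.19 ± 0.11, SE, n = 2 and 3). Gamma-actin (Actg1), the other cytoplasmic isoform, was counted at 5.89 and 4.9 CPM in ID3-/- libraries and at 3.2, 3.92 and 4.81 CPM in ID3+/- libraries (log2 fold change 0.44 ± 0.26). Of the 50-base stretches of its longest coding transcript, 56.7% also occur in transcripts of 22 other genes, 12 of them pseudogenes, and reads that aligned more than once were not counted, so its level is an uncertain minimum. The same measure was 14.2% for Actb.

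Among monomer binders, the holder of monomers fell and profilin, which delivers them to growing ends, rose. Tmsb4x, whose product sequesters monomers, had 6689 and 6906 CPM in ID3-/- libraries and 9032, 8675 and 9518 CPM in ID3+/- libraries, and was called lower (log2 fold change -0.42 ± 0.07). Pfn1 had 2782 and 2984 CPM in ID3-/- libraries and 1736, 1831 and 2234 CPM in ID3+/- libraries, and was called higher (0.58 ± 0.12). The read ratio of Tmsb4x to Pfn1 was accordingly 2.4 and 2.31 in ID3-/- libraries, against 5.2, 4.74 and 4.26 in ID3+/- libraries, with no overlap. The second thymosin, Tmsb10, was counted at 12.1 and 9.82 CPM in ID3-/- and 9.37, 8.11 and 9.83 CPM in ID3+/- libraries, which overlapped (0.27 ± 0.18, not called), and shares 43.5% of its 50-base stretches with other genes.

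The twinfilins, which bind monomers and cap barbed ends, stood on opposite sides. Twf1 was called lower, with 20.4 and 17.9 CPM in ID3-/- libraries and 31.2, 30.7 and 25.8 CPM in ID3+/- libraries (log2 fold change -0.61 ± 0.14). Twf2, the more abundant paralogue, had 135 and 155 CPM in ID3-/- libraries and 115, 98.1 and 116 CPM in ID3+/- libraries, and its difference of 0.40 ± 0.12 was not called. The ratio of Twf2 to Twf1 reads was 6.63 and 8.64 in ID3-/- and 3.7, 3.2 and 4.48 in ID3+/- libraries. Cap1, a cyclase-associated protein that recycles monomers with cofilin, had 113 and 114 CPM in ID3-/- and 125, 135 and 144 CPM in ID3+/- libraries and was not called (-0.25 ± 0.10).

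The Arp2/3 complex has 7 kinds of subunit, 2 of which have a paralogue among the members, and 7 of its 9 genes were not called. Actr2, which encodes Arp2, an actin-related subunit on which a new branch starts, was called lower at 37.6 and 44.4 CPM in ID3-/- libraries, against 71, 89.9 and 75.8 CPM in ID3+/- libraries (log2 fold change -0.94 ± 0.14). Arpc4, a core subunit that holds the complex together, was called higher at 803 and 769 CPM in ID3-/- libraries, against 488, 463 and 588 CPM in ID3+/- libraries (0.62 ± 0.12). The genotypes did not overlap for either gene. Arpc4 reads outnumbered Actr2 reads by 21.4 and 17.3 to 1 in ID3-/- libraries and by 6.87, 5.15 and 7.76 to 1 in ID3+/- libraries.

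The remaining Arp2/3 genes differed less. Arpc2, the other core subunit, had 965 and 874 CPM in ID3-/- libraries and 981, 994 and 1014 CPM in ID3+/- libraries (log2 fold change -0.12 ± 0.08). Actr3, which encodes the partner of Arp2, had 270 and 322 CPM in ID3-/- and 399, 365 and 373 CPM in ID3+/- libraries (-0.36 ± 0.11), with 49.8% of its 50-base stretches found in other genes. Fold changes of the alternative subunits were -0.06 ± 0.11 for Arpc1b and 0.26 ± 0.08 for Arpc1a, and 0.05 ± 0.08 for Arpc5 and 0.31 ± 0.12 for Arpc5l. Within both pairs the more abundant paralogue made up a smaller part of the counted reads in ID3-/- libraries. With offsets for transcript length and GC content, however, Arpc5 stood at 0.32 and Arpc5l at 0.28, and Arpc1b at -0.06 and Arpc1a at 0.18. Arpc1b shares 42.2% of its 50-base stretches with other genes and Arpc1a 1.9%, so the ratio of this pair is uncertain. The ratio of Arpc1b to Arpc1a was 8.3 and 6.63 in ID3-/- and 9.18, 9.17 and 9.62 in ID3+/- libraries, and that of Arpc5 to Arpc5l was 8.15 and 9.32 in ID3-/- and 10.7, 11.1 and 9.7 in ID3+/- libraries. Arpc3 was at 329 and 357 CPM in ID3-/- and at 312, 321 and 369 CPM in ID3+/- libraries, which overlapped (0.04 ± 0.11).

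Of the 7 activators, formins and Ena/VASP genes, Wipf1 alone was called. Wipf1 encodes WIP, the partner that binds and stabilises WASP, and had 49.2 and 47.6 CPM in ID3-/- libraries, against 78.4, 79.4 and 67.7 CPM in ID3+/- libraries (log2 fold change -0.64 ± 0.11, called lower). Was, which encodes WASP itself, had 51.8 and 52.4 CPM in ID3-/- and 52.6, 58.1 and 60.3 CPM in ID3+/- libraries (-0.13 ± 0.10). Wasf2, which encodes the WAVE protein WAVE2, had 215 and 234 CPM in ID3-/- and 267, 269 and 258 CPM in ID3+/- libraries (-0.24 ± 0.09). These 3 genes were lower in both ID3-/- libraries than in any ID3+/- library, although the closest Was libraries nearly met.

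The Ena/VASP proteins, which shield growing ends from cappers, had values on the other side without being called. Vasp had 394 and 409 CPM in ID3-/- libraries and 287, 288 and 351 CPM in ID3+/- libraries (log2 fold change 0.38 ± 0.12). Evl had 136 and 134 CPM in ID3-/- libraries and 111, 103 and 133 CPM in ID3+/- libraries (0.22 ± 0.13), so that the closest libraries of the genotypes nearly met. The formins differed by -0.37 ± 0.19 for Diap1, which was low at 9.76 and 10.7 CPM in ID3-/- and 13.4, 15.2 and 11.1 CPM in ID3+/- libraries, and by 0.26 ± 0.14 for the leukocyte formin Fmnl1, whose groups overlapped.

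Barbed-end cappers changed in opposite directions. Capg, a calcium-regulated capper of the gelsolin family that does not sever, had 143 and 152 CPM in ID3-/- libraries and 50.4, 48.9 and 44.2 CPM in ID3+/- libraries. Its log2 fold change of 1.63 ± 0.10 (3.09-fold, called higher) was the largest increase among the members. Gelsolin (Gsn), which severs and then caps, was called higher at 77.9 and 60 CPM in ID3-/- libraries, against 35.5, 35 and 42.5 CPM in ID3+/- libraries (0.87 ± 0.15). Both had ID3-/- libraries well above every ID3+/- library.

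The heterodimeric capping protein, in contrast, had lower levels of an alpha subunit transcript. Capza2 was called lower at 212 and 222 CPM in ID3-/- libraries, against 415, 429 and 381 CPM in ID3+/- libraries (log2 fold change -0.91 ± 0.09). Capza1 had 5.8 and 11.4 CPM in ID3-/- libraries and 18.5, 30.7 and 17 CPM in ID3+/- libraries, and its fold change of -1.36 ± 0.39, the lowest among the members, was not called. As 77.4% of the 50-base stretches of Capza1 occur in other genes, its level is an uncertain minimum. The beta subunit gene Capzb had 750 and 693 CPM in ID3-/- libraries and 807, 766 and 795 CPM in ID3+/- libraries (-0.13 ± 0.08, not called). Its ratio to Capza2 was 3.54 and 3.12 in ID3-/- libraries and 1.94, 1.78 and 2.09 in ID3+/- libraries. Cofilin 1 (Cfl1), the main severing protein of most cells, had 1148 and 1084 CPM in ID3-/- and 962, 955 and 1092 CPM in ID3+/- libraries, which overlapped (0.15 ± 0.09, not called).

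**Figure D3:**
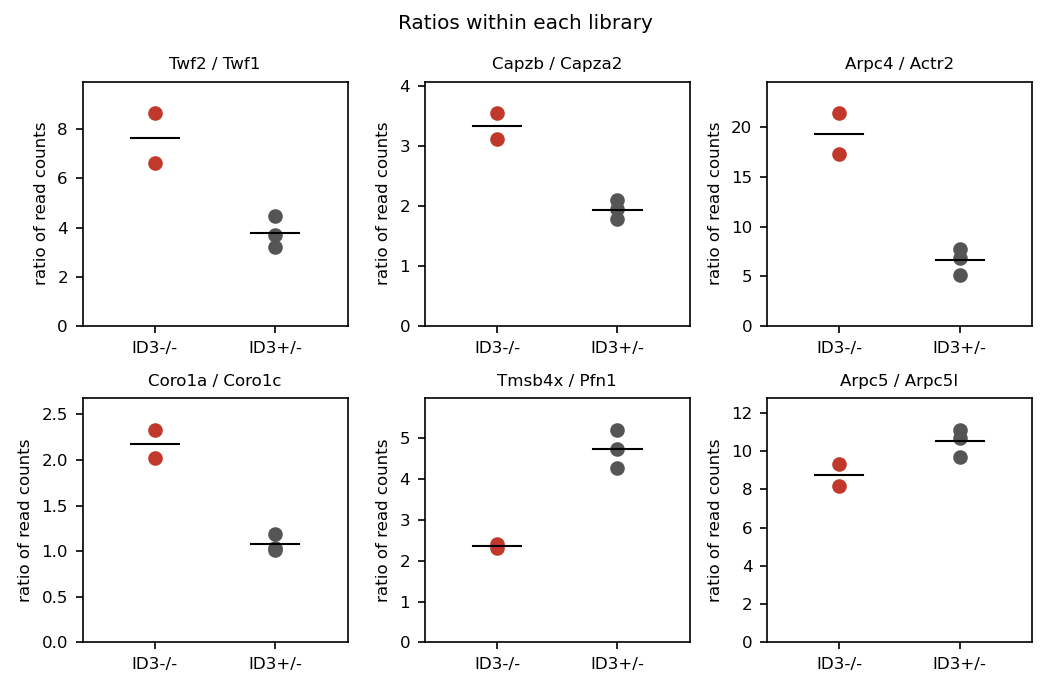
Ratios of read counts between pairs of genes within each library (vertical axes from 0), with ID3-/- libraries on the left (n = 2), ID3+/- libraries on the right (n = 3) and bars at the means. The 6 pairs shown were picked from a longer set, and in each of them the genotypes do not overlap. The ratios carry no offsets for transcript length and GC content. With such offsets, fold changes were 0.14 and -0.14 for Twf2 and Twf1, and -0.20 and -0.27 for Capzb and Capza2. Those of Arpc4 and Actr2 were 0.56 and -0.30, and those of Arpc5 and Arpc5l 0.32 and 0.28. Coro1a and Coro1c stood at 1.02 and 0.21, and Tmsb4x and Pfn1 at -0.44 and 0.20. The Arpc4 to Actr2 ratio was 17.3 and 21.4 in ID3-/- and 5.15 to 7.76 in ID3+/- libraries. Among pairs not shown, the genotypes overlapped for Capza2 to Capza1 and for Lcp1 to Pls3.

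All 4 coronin genes had higher values in both ID3-/- libraries than in any ID3+/- library, and 3 were called, where over all genes tested 24.6% lay above and 6.41% were called higher. Coronins outside the member list did not share this: Coro2a overlapped (-0.21 ± 0.15, not called) and Coro2b was called lower. Coro1a, the coronin of blood cells, which binds filaments at sites of engulfment, had 588 and 552 CPM in ID3-/- libraries and 233, 224 and 265 CPM in ID3+/- libraries (log2 fold change 1.24 ± 0.10). Coro1b, which acts on Arp2/3 branches at the leading edge, had 1485 and 1286 CPM in ID3-/- libraries and 926, 847 and 1014 CPM in ID3+/- libraries (0.58 ± 0.11). Coro7, which works in trafficking at the Golgi, had 411 and 316 CPM in ID3-/- libraries and 254, 207 and 261 CPM in ID3+/- libraries (0.60 ± 0.15). Coro1c was not called, at 291 and 237 CPM in ID3-/- and 225, 223 and 223 CPM in ID3+/- libraries (0.24 ± 0.11). The ratio of Coro1a to Coro1c reads was 2.02 and 2.33 in ID3-/- libraries, against 1.04, 1.01 and 1.19 in ID3+/- libraries, where the genes had nearly equal reads.

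The bundler of leukocytes was the called member among the bundlers. L-plastin (Lcp1), which cross-links filaments into bundles in blood cells, had 535 and 490 CPM in ID3-/- libraries and 698, 771 and 704 CPM in ID3+/- libraries (log2 fold change -0.50 ± 0.09, called lower). Its paralogue T-plastin (Pls3), found mostly outside blood cells, was at 2.1 and 4.47 CPM in ID3-/- libraries and 8.13, 9.33 and 5.57 CPM in ID3+/- libraries (-1.23 ± 0.40, not called). Fascin (Fscn1) was at 16.8 and 17 CPM in ID3-/- and 19.2, 13.6 and 17.4 CPM in ID3+/- libraries (0.01 ± 0.18, overlapping).

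None of the ezrin, radixin and moesin genes was called (edgeR, with 0 higher and 1 lower, Rdx, at an unadjusted p under 0.05, and Rdx called lower by DESeq2). Moesin (Msn), the main one in leukocytes and the most abundant here, had 1317 and 1324 CPM in ID3-/- libraries and 1449, 1456 and 1429 CPM in ID3+/- libraries (log2 fold change -0.13 ± 0.07), a small difference without overlap. With offsets for transcript length and GC content the fold change of Msn was 0.18. Ezrin (Ezr) had 145 and 149 CPM in ID3-/- and 141, 137 and 136 CPM in ID3+/- libraries (0.09 ± 0.08). Radixin (Rdx), the form that liver parenchymal cells use, had 5.84 and 12.1 CPM in ID3-/- and 14.4, 18.9 and 18.9 CPM in ID3+/- libraries (-0.95 ± 0.33). Rdx, Pls3 and Capza1 were each lower in ID3-/- library 2 than in library 3, as were the hepatocyte markers with 3609 and 9132 CPM, and the part of hepatocyte RNA in these differences was not tested.

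Among the remaining members Lsp1 was called. Lsp1 encodes a leukocyte protein that binds filaments and was called higher, with 105 and 55.2 CPM in ID3-/- libraries and 41.6, 35.1 and 38.5 CPM in ID3+/- libraries (log2 fold change 1.06 ± 0.26). Library 2 carried much of that difference, which was 0.52 and not called without it. The same library held more neutrophil marker RNA (476 CPM, against 204 CPM in ID3-/- library 3) and more T and NK cell marker RNA (111 CPM, against 70.7 CPM), whose part in the Lsp1 value was not tested. Arhgdib, a GTPase dissociation inhibitor of blood cells, had 673 and 583 CPM in ID3-/- and 441, 423 and 519 CPM in ID3+/- libraries (0.45 ± 0.12). It was not called in the edgeR fit used throughout but was called higher by DESeq2 and limma-voom. Arhgdib was also called higher by edgeR with upper-quartile scaling, library size scaling or a minimum of 1 CPM in 2 samples. Vimentin (Vim), an intermediate filament protein, had 87.8 and 88 CPM in ID3-/- and 142, 108 and 121 CPM in ID3+/- libraries (-0.49 ± 0.13). It was not called in that edgeR fit but was called lower by DESeq2 and limma-voom, and by edgeR with a minimum of 1 CPM in 2 samples. The motors were not called either: Myh9, the heavy chain of non-muscle myosin IIA, had a fold change of -0.26 ± 0.09, and Myo1f, a class I myosin of leukocytes, one of 0.36 ± 0.15 with overlapping groups.

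The calls rested on few libraries. Capg, Coro1a and Capza2 stayed called whichever of the 5 libraries was left out, with fold changes of 1.57 to 1.67, 1.19 to 1.32 and -0.96 to -0.87. Without ID3-/- library 2, these 3 and Lcp1 were called, and without ID3+/- library 1, these 3 and Actr2. Without ID3+/- library 2, these 3 alone were called. Without ID3-/- library 3, the calls of Pfn1, Twf1, Wipf1 and Lcp1 were lost, and without ID3+/- library 3, those of Coro7 and Lsp1. Members gained a call too: Actr3, Capza1, Pls3 and Rdx were called lower without ID3-/- library 3, and Vasp and Arhgdib higher without ID3+/- library 3. Without ID3-/- library 3 the fold changes were -1.92 for Capza1, -1.86 for Pls3 and -1.57 for Rdx, and without ID3-/- library 2 they were -0.96, -0.78 and -0.52 in the same order. None of the 14 changed sign in any of these fits.

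Fold changes among the members moved with the base composition of their transcripts. Across the 45 genes, which share the same 5 libraries, the Spearman correlation of the log2 fold change with the GC content of the longest coding transcript was 0.67 and with its length -0.47, and over 16389 genes the values were 0.38 and -0.29. Of the 15 members with the lowest GC content (39.3% to 49.8%), 0 were called higher and 6 lower (edgeR), and their median fold change was -0.50. At an unadjusted p under 0.05 these counts were 1 and 10, and DESeq2 called 0 higher and 10 lower. These 15 include Capza2, Actr2, Twf1, Lcp1, Tmsb4x and Wipf1. In the 15 with the highest (54.4% to 61%), 6 were called higher and 0 lower, with a median of 0.38, among them Capg, Coro1a, Gsn, Coro7, Pfn1 and Coro1b. Here the counts were 8 and 2 at an unadjusted edgeR p under 0.05, and 8 and 0 in DESeq2. The middle 15 (50.1% to 54.2%) held 2 called higher, Lsp1 and Arpc4, and a median of 0.19. Offsets for length and GC content were also put in the fit. They were estimated from the counts of these same libraries. Any genotype difference that follows length or GC content is therefore taken out with them, whether technical or biological. With these offsets, Capg (1.35) and Coro1a (1.02) were the members still called. Capza2 then stood at -0.27, Actr2 at -0.30, Twf1 at -0.14, Lcp1 at -0.17 and Pfn1 at 0.20. Tmsb4x (-0.44), Arpc4 (0.56), Gsn (0.74), Coro7 (0.59) and Lsp1 (0.97) kept nearly the same size without being called, and Coro1b stood at 0.40 and Wipf1 at -0.36. Of the members not called, Msn (0.18), Actr3 (0.08), Arpc2 (0.05), Arpc3 (-0.12), Tmsb10 (-0.20) and Fscn1 (-0.16) changed sign with these offsets.

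**Figure D4:**
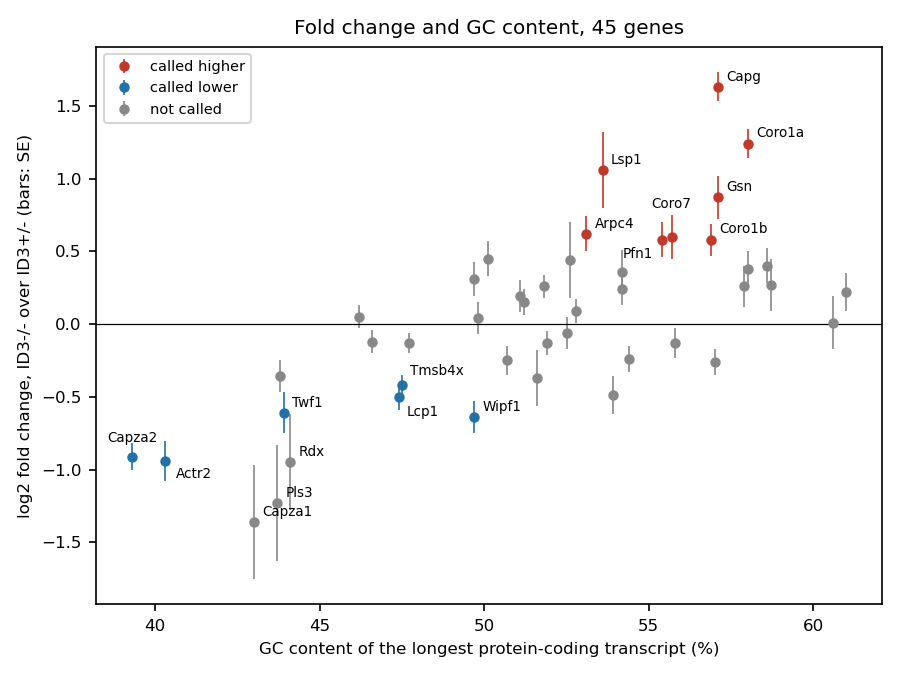
Log2 fold change of ID3-/- (n = 2) over ID3+/- (n = 3) with its SE against the GC content of the longest coding transcript for the 45 genes. The members called lower lie below 50% GC, and those called higher lie above 53%.

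Beyond the members, 169 other genes of actin dynamics, adhesion linkage and related filaments were taken from lists by function, and 158 of them were tested. Of these, 10 were called higher and 21 lower and 127 were not called, with a median log2 fold change of -0.08 (-0.02 over all genes), which is 19.6% called against the 16.4% of all genes tested. With the length and GC offsets, 2 were called higher and 7 lower. Of the genes named below, Abi1 (-0.52), Nckap1 (-1.82), Actn1 (-0.86), Sptbn1 (-1.16), Coro2b (-1.95), Myo1e (1.31) and Krt8 (-2.24) were still called with these offsets. Tmod3 (-0.51), Ssh2 (-0.60), Gmfb (-0.61), Nck1 (-0.10), Tpm4 (-0.34), Brk1 (0.26), Fmnl3 (0.50), Daam2 (-1.95), Myo1g (0.44) and Tubb6 (0.38) were not.

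In the list of WASP, WAVE and WASH complexes and cortactins, 1 of 24 tested genes was called higher and 6 lower. The WAVE complex activates Arp2/3 downstream of Rac. Abi1, an adaptor subunit of the WAVE complex, had 35.3 and 39.1 CPM in ID3-/- libraries and 85.9, 91 and 68.9 CPM in ID3+/- libraries (log2 fold change -1.14 ± 0.15, edgeR adjusted p = 0.0106). Nck1, an adaptor that links receptors to WASP proteins, was lower (-0.87 ± 0.15, edgeR adjusted p = 0.0182). Nckap1 was lower too but rare, at 1.05 and 1.55 CPM in ID3-/- and 7.49, 8.4 and 3.72 CPM in ID3+/- libraries, while its blood cell counterpart Nckap1l, at 507 and 435 CPM in ID3-/- and 504, 493 and 497 CPM in ID3+/- libraries, was not called (-0.08 ± 0.09). Brk1, the smallest WAVE subunit, was the one called higher (0.39 ± 0.10, edgeR adjusted p = 0.0447). Among 12 formins and spires, Fmnl3 was higher (0.48 ± 0.10, edgeR adjusted p = 0.0293) and the rare Daam2 lower, while Spire1, the most abundant not called, had a fold change of -0.19 ± 0.21.

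Among 30 tested severing, capping and monomer-binding genes, 3 were called higher and 4 lower. Tmod3, which caps pointed ends, had 39.2 and 37 CPM in ID3-/- libraries and 90.3, 87.9 and 71.7 CPM in ID3+/- libraries (log2 fold change -1.13 ± 0.13, edgeR adjusted p = 0.00923). Ssh2, a phosphatase that activates cofilin, was lower (-1.16 ± 0.18), as was Gmfb, which detaches Arp2/3 branches (-1.37 ± 0.18). Wdr1, the cofactor of cofilin, had 1118 and 982 CPM in ID3-/- and 811, 771 and 875 CPM in ID3+/- libraries and was not called (0.36 ± 0.10, edgeR adjusted p = 0.056). Among 34 crosslinkers and adhesion linkers, 2 were higher and 8 lower. The spectrin Sptbn1 had 10.8 and 11.7 CPM in ID3-/- libraries and 33.2, 35.6 and 35.2 CPM in ID3+/- libraries (-1.62 ± 0.12, edgeR adjusted p = 0.00369). Alpha-actinin 1 (Actn1) was lower (-0.89 ± 0.12), Coro2b, a coronin outside the member list, was lower but rare, and talin 1 (Tln1) was not called (-0.26 ± 0.14).

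Of 24 myosins and tropomyosins, 2 were higher and 1 lower: Myo1e had 22.9 and 31.7 CPM in ID3-/- and 13.7, 12.8 and 11.1 CPM in ID3+/- libraries (log2 fold change 1.12 ± 0.19, edgeR adjusted p = 0.0173), Myo1g was higher by 0.52 ± 0.11, and Tpm4 was lower (-0.66 ± 0.15). Myl12a, a myosin light chain and the most abundant of these not called, had 470 ± 39.1 CPM (SD, n = 2) in ID3-/- and 385 ± 33.4 CPM (SD, n = 3) in ID3+/- libraries (0.29 ± 0.11). None of 9 other actins and actin-related genes was called by edgeR or DESeq2, and 0 had an unadjusted edgeR p under 0.05, the most abundant being Actr1a (0.18 ± 0.10). None of 7 tested genes of serum response factor and its coactivators was called by edgeR, with 2 higher and 1 lower at an unadjusted p under 0.05 and the same counts called by DESeq2. The most abundant of them, Mkl1, had a fold change of 0.48 ± 0.16. Of 18 other intermediate filament and tubulin genes, Tubb6 was higher (0.57 ± 0.10) and Krt8, a keratin of hepatocytes, lower, at 5.52 and 11.3 CPM in ID3-/- and 35.2, 32.9 and 37 CPM in ID3+/- libraries, beside the hepatocyte marker sums given above. Tubb5, the most abundant of these not called, had a fold change of 0.07 ± 0.20. Abi1, Tmod3 and Sptbn1 stayed called whichever of the 5 libraries was left out, and of the 31 called these 3 were the only ones to do so, although with length and GC offsets Tmod3 was not called and Abi1 was down to -0.52.

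**Figure D5:**
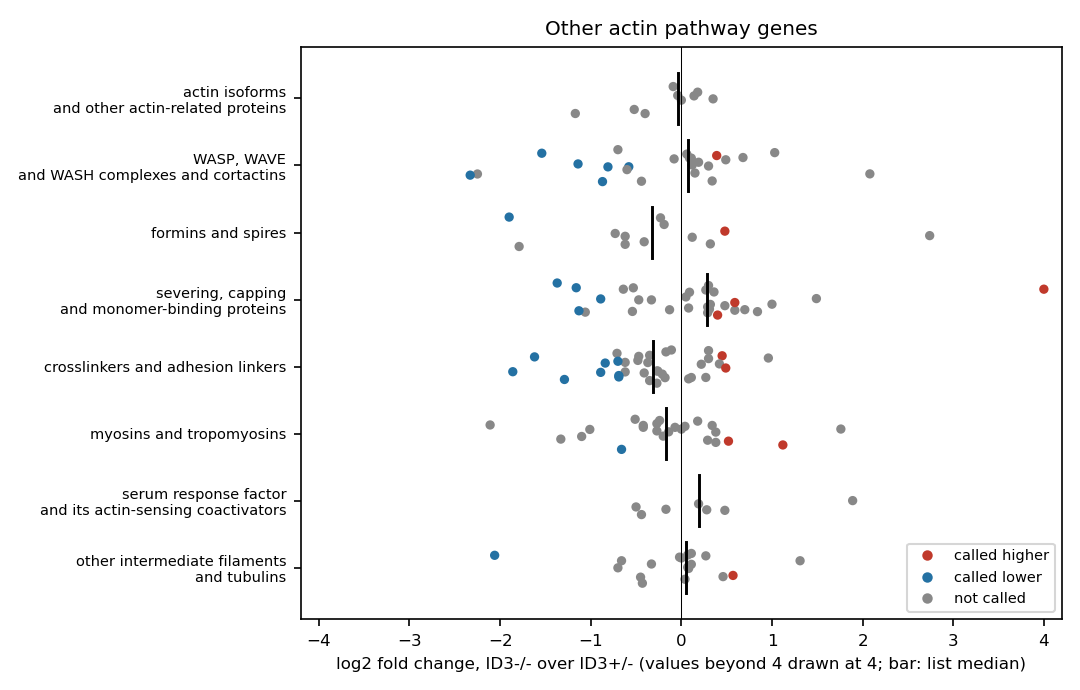
Log2 fold change of ID3-/- (n = 2) over ID3+/- (n = 3) for the tested genes of 8 lists outside the 45 members, with bars at each list's median and values beyond 4 drawn at 4. The medians run from -0.32 for formins and spires to 0.28 for severing, capping and monomer-binding proteins, and most genes are not called.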

How the data were processed

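Raw read counts per gene, 1 column per library, were deposited by the authors. Per the submitters' processing notes they used HTSeq 0.5.4, DESeq 1.18.0, R 3.1.2 and build mm9, while the sources used here do not name the aligner, annotation release or strand setting. Per the labels' protocols, amplified cDNA (SMART-seq V4) went into Kapa libraries. Column names carry a "3w" of unstated meaning. Rows that name no gene (40.0% and 42.8% of everything counted in ID3-/-, 47.0% to 48.6% in ID3+/- libraries) were left out. Multi-aligned reads are among them.

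The members and lists were chosen with earlier results of these data known. Genes kept by filterByExpr were scaled by TMM and tested with the quasi-likelihood test of edgeR 4.0.16 (R 4.3.3, 3 residual degrees of freedom, no covariate) over 16436 genes, as ID3-/- minus ID3+/-. The SE is the absolute log2 fold change divided by the square root of F. An exact test of a single value cannot go below 0.1 here. The test was tried on simulated data. Transcript length, exonic length, GC content and shared 50-base stretches came from GENCODE M21, matched by gene ID. A gene at 0 would have a floor of 3 counts (0.0371 to 0.0401 CPM), for counting error only. Library pairs differed by more than sampling noise. The members named were the actins and thymosins, the 8 called with the largest change, the 4 most abundant not called, and those that differ from their role group. In each other list they were up to 3 called by smallest p and the most abundant one not called. The remaining values were added afterwards. One list of related genes, drawn up with the others, is not reported here. Alternatives were DESeq2 1.42.0, limma-voom 3.58.1, other scalings and filters, a replicate block, length and GC offsets, and leaving out each library.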

Additional observations from a re-analysis of the deposited data

How the results depend on the processing

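Counts of calls depended on the test and on single libraries. DESeq2 called 2061 genes higher and 2520 lower over all genes (1054 and 1644 in edgeR), 12 and 11 of the members (8 and 6), and 22 and 34 of the other actin pathway genes (10 and 21). The 9 members called by DESeq2 alone of these were Twf2, Arpc1a, Vasp and Arhgdib, higher, and Actr3, Capza1, Pls3, Rdx and Vim, lower. With length and GC offsets the counts were 438 and 685 over all genes, 2 and 0 of the members (7 and 5 at an unadjusted p under 0.05), and 2 and 7 of the other pathway genes. With a minimum of 1 CPM in 2 samples, 17 other pathway genes were higher. Upper-quartile scaling gave 1443 higher and 1499 lower over all genes, 12 and 6 of the members, and 16 and 21 of the other pathway genes. Leaving out 1 library gave 87 to 1032 higher and 248 to 1508 lower over all genes, 2 to 8 and 1 to 7 of the members, and 0 to 13 and 3 to 20 of the other pathway genes. The 0 fell without ID3+/- library 1 or 2, where 18 and 19 were higher at an unadjusted p under 0.05. In every setting except the replicate block, Capg and Coro1a were called. No member called, and none of the other pathway genes called, changed sign in any alternative. Deviations of libraries with equal replicate numbers correlated at -0.12 and -0.06 over 9058 genes. The deviations of the 2 ID3-/- libraries from their mean mirror each other, so these values cannot settle whether the replicate numbers pair the libraries. With a replicate block, which leaves ID3+/- library 1 with a term of its own, edgeR called 0 genes higher and 1 lower over all genes, 0 and 0 of the members, and 0 and 0 of the other pathway genes, with 1288 and 2209, 9 and 7, and 10 and 28 at an unadjusted p under 0.05. The cause of these shifts was not tested. With 2 and 3 libraries, small differences could not be separated from the spread, and levels of genes with near-identical copies remain minima.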
